A study of Rattus norvegicus with 23 samples.

Results

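The Iroquois genes Irx1, Irx2, Irx3, Irx4, Irx5 and Irx6 and the Hey genes Hey1, Hey2 and Heyl encode transcription factors that were compared here over 6 regions of the rat heart and its great vessels. A gene was taken as measured where the RefSeq accession that the array design gives for a probe belongs to it, a rule that uses no measured value. By this rule 8 of the 9 genes had a probe, of 16544 genes named in all, and no probe matched Irx3. Each of the 8 genes had 1 probe printed as 1 spot, so a value rests on 1 spot of each array.

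Iroquois proteins are homeodomain transcription factors whose genes lie side by side in clusters. In the heart, Irx4 is known as a factor of ventricular muscle, and Irx3 and Irx5 are known for their part in conduction and in the repolarization gradient across the ventricular wall. Hey proteins are basic helix-loop-helix repressors that Notch receptors switch on, through the DNA-binding protein Rbpj, when a neighbouring cell presents a Notch ligand. Hey2 is known in the compact ventricular wall and in arteries, Hey1 in the atria of the embryo and in endothelium, and Heyl in vascular mural cells.

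Male rats of the outbred Wistar strain, 12 in number and 8 to 11 weeks of age, gave the tissue, with no allele or drug under study named in the labels. The whole group shared deep anesthesia with pentobarbital and heparin and a wash of the heart and lungs with cold calcium-free solution. Left atrium (LA, 4 arrays) was the part next to the pulmonary vein, left ventricle (LV, 4 arrays) was a mass cut into 3 pieces that served as samples, and right ventricle (RV, 3 arrays) was the free wall. Sinoatrial node (SA, 4 arrays, labelled sinoauricular node) was pooled from 2 rats per sample, and pulmonary vein (PV, 4 arrays) and pulmonary artery (PA, 4 arrays) completed the set. The sources used here do not say which arrays come from which rats, so LV arrays may share a heart, and the p-values measure the spread between arrays only.

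Each of the 23 single-color arrays gave 58.5% to 79.8% of its probes well above background, and the arrays lay on 3 slides in 2 rows. The lowest signal well above background was 13.3 to 21.3 on the 11 arrays of row 1 and 29.1 to 49.6 on the 12 of row 2, so a dim gene was more often measurable in row 1. Labelled tissues were checked against marker genes as the summed signal of a list in log2. The 3 ventricular myocyte markers summed to 20.1 to 20.5 in LV and RV, 18.3 to 18.9 in LA, SA and PV, and 12.2 to 14.7 in PA, where all 3 were still above background. A sum follows its brightest genes. Mean log2 signals in LA and LV were 18.3 and 18.6 for Myh7, but 14.4 and 19.1 for Myl2 and 13.8 and 18.6 for Myl3. The 5 atrial myocyte markers summed to 20.3 to 20.7 in LA, SA and PV, 17.9 to 18.7 in the ventricles and 11.7 to 15.3 in PA, so PV held atrial muscle and PA held the least muscle RNA of the heart. In the ventricles the atrial sum followed Myl4, with mean log2 signals of 17.7 in LA, 17.9 in LV and 17.7 in RV. Mybphl had 17.2, 6.19 and 7.40. The 5 smooth muscle markers summed to 18.6 to 18.9 in PA, 14.8 to 15.5 in PV, 14.1 to 14.8 in SA and 11.997 to 13.1 in LA, LV and RV. The right ventricular array of replicate 2 stood above the RV mean in log2 signal for the atrial genes Sln (10.7 against 9.24), Mybphl (9.09 against 7.40), Myl7 (15.6 against 14.9) and Nppa (11.8 against 10.96). The same held for the fat gene Adipoq (7.79 against 5.85), but not for Myl4 (17.6 against 17.7), Cidea (12.4 against 12.5) or Ucp1 (3.38 against 4.32). Its summed lists were 17.9 for atrial and 12.5 for fat markers, where the other 2 RV arrays had 17.9 and 17.9, and 12.4 and 12.6. The mean log2 signal over the 5 atrial markers was 12.9 on this array and 11.4 and 11.8 on the other 2.

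Levels are normalized signals on a linear scale, and differences are differences of mean log2(signal + 1) with their standard error (SE). A difference was called where limma's moderated test on all 23 arrays, adjusted by Benjamini-Hochberg over 16089 genes, gave an adjusted p below 0.05. The ventricle (V) is the equally weighted mean of LV and RV. Irx2, Irx4, Irx5, Irx6, Hey1, Hey2 and Heyl entered the tests. Irx1 stayed between 3.0 and 12.6 and was well above background on 0 of 23 arrays, so it was not tested and these arrays give no level for it. In bulk tissue, fewer cells of a type and less RNA per cell cannot be told apart.

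**Figure D1:**
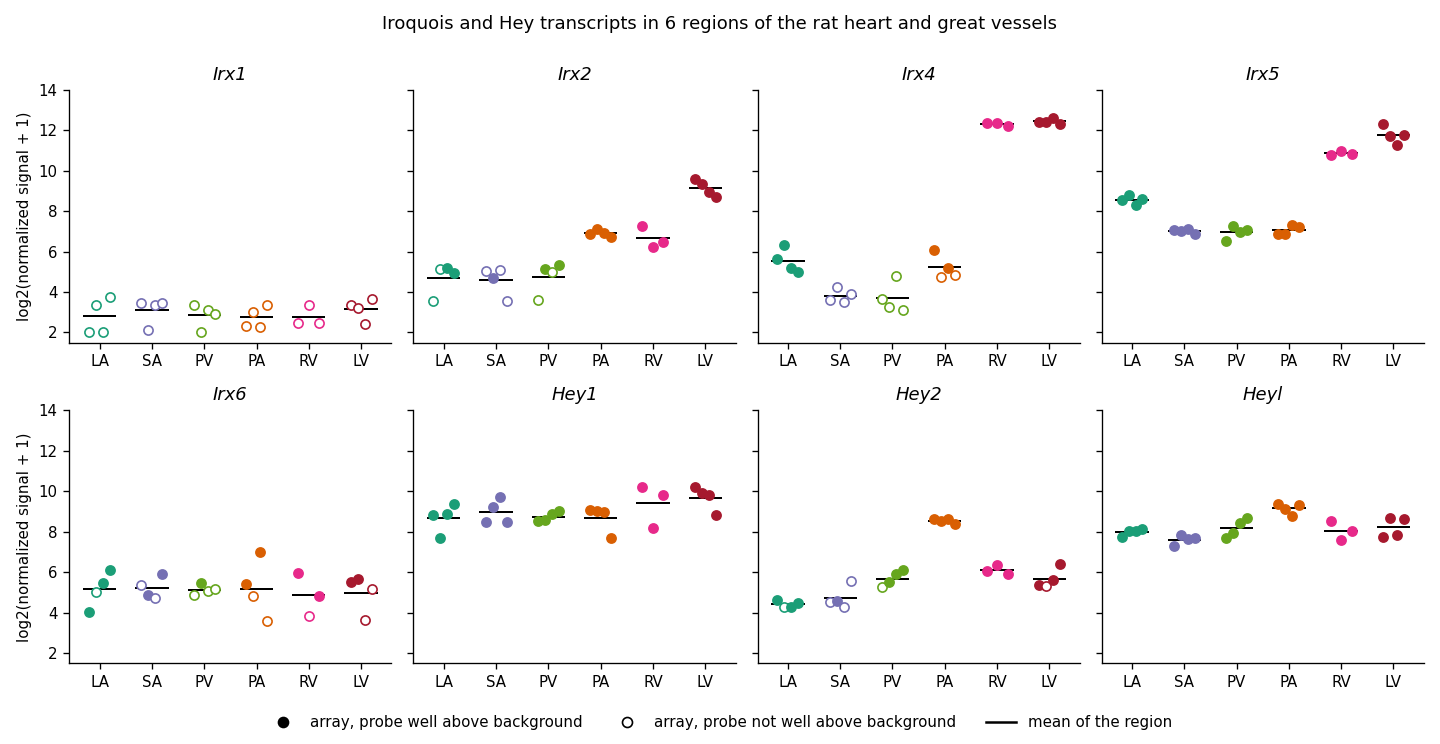
Log2(normalized signal + 1) of each gene on every array, by region, with filled points for arrays on which the probe was well above background, open points for the others and a bar at the mean. Irx2, Irx4 and Irx5 have their highest mean in LV, Hey2 and Heyl theirs in PA, and Irx1 is below background on all 23 arrays.

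The rat genome table of RefSeq (GRCr8) places Irx4, Irx2 and Irx1 in a row on chromosome 1 and Irx6, Irx5 and Irx3 in a row on chromosome 19, with 0 other coding genes between the neighbours of either row. The array was designed on an older build, so only the order of the genes is taken from this table. The sequences of RefSeq promoters on GRCr8 held 6 of the 9 genes, Irx1, Irx2, Irx3, Irx4, Hey2 and Heyl. The 250 bases before the start of the chromosome 1 genes are shown because 2 of the 3 neighbours, Irx4 and Irx2, were measured here and Irx1 was below background. Their windows are chr1:31868090-31868339 on the minus strand for Irx4, chr1:32494931-32495180 on the minus strand for Irx2 and chr1:33122872-33123121 on the plus strand for Irx1. Capitals mark the GC box letters GGGCGG and the E-box letters CACGTG, a sequence that Hey factors can bind, and both strands were searched.
Irx4: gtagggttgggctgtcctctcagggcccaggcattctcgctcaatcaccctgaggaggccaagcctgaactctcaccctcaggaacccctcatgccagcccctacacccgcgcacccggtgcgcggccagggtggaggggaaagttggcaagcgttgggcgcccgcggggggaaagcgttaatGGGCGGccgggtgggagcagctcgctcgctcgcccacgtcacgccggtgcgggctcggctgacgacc
Irx2: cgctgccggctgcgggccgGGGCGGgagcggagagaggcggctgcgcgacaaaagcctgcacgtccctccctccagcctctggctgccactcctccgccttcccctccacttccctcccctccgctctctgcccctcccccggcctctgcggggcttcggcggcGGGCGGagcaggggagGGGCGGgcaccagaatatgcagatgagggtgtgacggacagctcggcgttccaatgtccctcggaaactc
Irx1: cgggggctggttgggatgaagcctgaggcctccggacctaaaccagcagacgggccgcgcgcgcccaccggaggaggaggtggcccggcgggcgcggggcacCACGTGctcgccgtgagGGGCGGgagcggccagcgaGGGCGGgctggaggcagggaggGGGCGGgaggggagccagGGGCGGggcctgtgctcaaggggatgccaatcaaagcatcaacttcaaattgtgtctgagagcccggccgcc
The GC box letters stood once before Irx4, at 67 bases from the start, 3 times before Irx2 and 4 times before Irx1, and 30.5% of 33469 promoter windows of this length hold them. The E-box letters stood only before Irx1 among the 6 windows, at 148 bases from the start, and 5.59% of all windows hold them. The windows held 69.2% G or C for Irx4, 71.6% for Irx2 and 72.8% for Irx1, against a median of 51.2% over all windows. No window of the 6 held the letters AGATAA of GATA factors, AGGTGT of T-box factors or CATTCC of TEAD factors, which 10.3%, 11.6% and 12.1% of all windows hold. A match is a description of the sequence and not of binding.

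The first comparison asked which of these genes separate the ventricle from the atrial regions. Irx4, Irx5, Irx2 and Hey2 were higher in V than in LA, Irx4 by 116-fold, Irx2 by 9.20-fold, Irx5 by 6.75-fold and Hey2 by 2.77-fold, and no gene of the 7 was lower. These 4 of 7 genes stand beside 35.4% of all genes tested that were called between V and LA, where 18.4% of all genes tested were higher in V. The median difference of the 7 genes was 1.47, and that of all genes tested was 0.09. The other 3, Hey1, Heyl and Irx6, did not pass. The folds depend on the background correction: with normexp and an offset of 50, V over LA was 39.2-fold for Irx4, 2.93-fold for Irx2, 5.33-fold for Irx5 and 1.34-fold for Hey2, all called.

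Irx4, the ventricular muscle factor, gave signals of 5499.5, 5442, 6282 and 5122 in LV and of 5292, 5220.5 and 4733 in RV. In LA its signals were 48.0, 78.7, 35.1 and 30.4, all well above background. Every ventricular array was far above every atrial one, and the 7 ventricular values lay close together. The difference between V and LA was 6.86 (SE 0.31, adjusted p = 2.73e-12, limma). SA gave 11.3, 18.0, 10.2 and 13.7 and PV gave 11.8, 8.7, 27.0 and 7.7, of which 0 of 8 were well above background. Against a group below background only a bound is given, the mean of the brighter group over the mean of, on each array, the higher of what the probe itself gave and the dimmest signal that still passed as well above background, called the floor below. By this bound Irx4 was at least 144-fold higher in V than in SA (adjusted p = 1.50e-13) and at least 179-fold higher in V than in PV (adjusted p = 1.46e-13, limma). These bounds hold for the deposited values, and with normexp the fitted folds were 53.6 and 52.7. Irx4 was not called between LV and RV, with a difference of 0.13 and a 95% interval from -0.64 to 0.91 (adjusted p = 0.956, limma).

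Irx5, from the other Iroquois cluster, was well above background on 23 of 23 arrays. Its signals were 5124, 3408, 2452 and 3477 in LV, 1746, 2017 and 1825 in RV, and 368, 448, 314.0 and 390.2 in LA. SA gave 135, 129, 137 and 117, and PV gave 90.7, 153.0, 126 and 132. The order was LV, RV, LA and then SA and PV together, with no overlap of arrays between these 4 levels. V was above LA by 2.75 (SE 0.16, adjusted p = 1.57e-10), above SA by 4.29, which is 19.6-fold (adjusted p = 4.26e-13), and above PV by 4.36, which is 20.5-fold (adjusted p = 3.08e-13, limma). With normexp these were 11.2-fold over SA and 11.4-fold over PV.

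Irx2, the neighbour of Irx4, gave 768, 642, 499.5 and 410.2 in LV and 153, 73.7 and 88.1 in RV. In LA it gave 10.9, 33.8, 35.3 and 29.2, of which 2 of 4 were well above background, in SA 31.3, 24.9, 33.4 and 10.8 with 1 of 4 above, and in PV 11, 33.7, 30.9 and 39.6 with 2 of 4 above. All ventricular arrays exceeded all arrays of these 3 regions, which overlapped one another. V was above LA by 3.20 (SE 0.37, adjusted p = 1.12e-06), above SA by 3.31 (adjusted p = 1.05e-06) and above PV by 3.14 (adjusted p = 1.60e-06, limma). With the arrays not well above background set to that floor, the fold of V over LA moved from 9.20 to 8.39, over SA from 9.89 to 5.9965 and over PV from 8.81 to 6.16.

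Between V and SA, 4 of 7 genes were called, all higher in V, beside 28.1% of all genes tested and 15.8% higher in V. The called genes were again Irx2, Irx4, Irx5 and Hey2. Between V and PV, 3 of 7 were called, Irx2, Irx4 and Irx5, beside 33.9% of all genes tested and 18.3% higher in V. These comparisons share the 7 ventricular arrays, so they are not separate pieces of evidence on V. The marker lists moved with them: ventricular myocyte markers were higher in V by the sums given above, and the 6 endothelial markers summed to 16.03 to 16.3 in V and 15.2 to 15.6 in LA, SA and PV. Sinoatrial pacemaker markers summed to 11.2 to 11.6 in V, 12.7 to 12.8 in SA and 12.2 to 12.4 in PV. Of these, Hcn4 and Tbx3 had lower mean log2 signals in PV (9.19 and 10.1) than in LV (9.52 and 10.6) and RV (9.57 and 10.2). Schwann cell markers summed to 10.6 to 11.5 in V, 12.7 to 12.8 in SA and 13.5 to 13.9 in PV, and erythroid markers to 6.95 to 8.52, 10.9 to 11.8 and 10.7 to 11.2. Between V and LA, mesothelial markers summed to 8.37 to 12.5 and 14.4 to 14.7, endocardial markers to 12.1 to 12.5 and 13.7 to 14.5, and pericyte markers to 14.8 to 15.1 and 13.9 to 14.1. Also without overlap between V and LA were the macrophage (12.8 to 13.4 against 12.2 to 12.7), Schwann cell (10.6 to 11.5 against 11.8 to 12.4), adipocyte (11.98 to 12.6 against 13.1 to 13.4), erythroid (6.95 to 8.52 against 9.31 to 9.99) and arterial endothelial markers (11.3 to 11.9 against 10.8 to 11.1). Lung epithelial markers were apart by a small margin, at 8.510 to 9.82 in V and 7.08 to 8.507 in LA. Their part in the differences was not tested. Within row 1 and within row 2, the difference between V and LA was 7.15 and 6.04 for Irx4, 2.82 and 2.55 for Irx5 and 3.52 and 2.49 for Irx2, with the same direction in both rows. Within-row values can rest on 1 array of a region, since row 2 held 1 LA and 1 RV array and row 1 held 1 SA and 1 PV array.

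**Figure D2:**
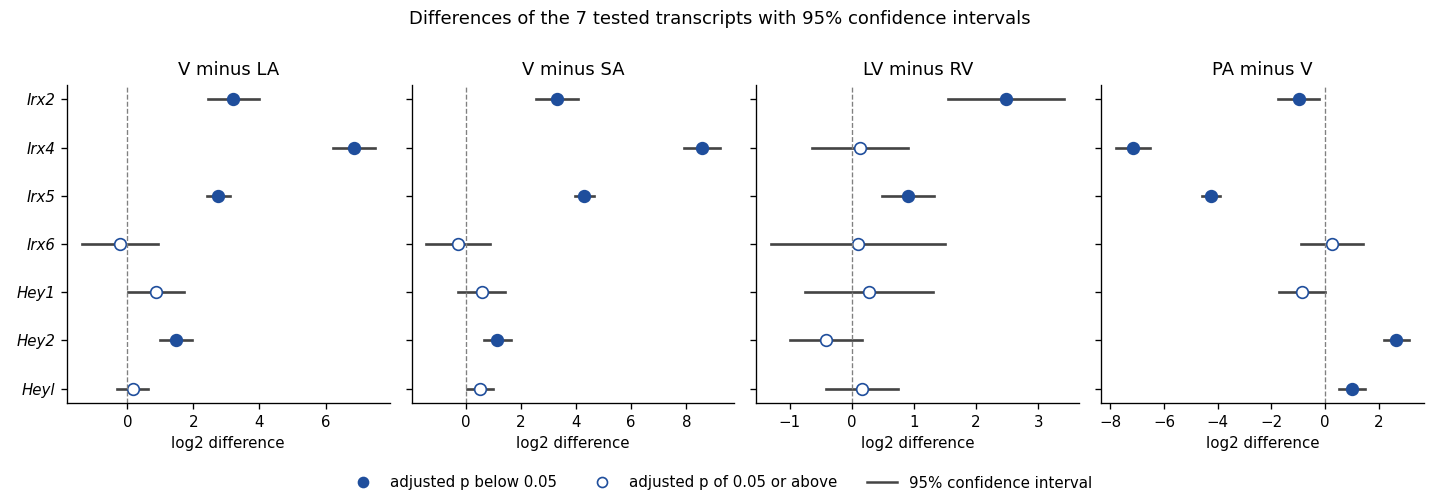
Differences of mean log2(signal + 1) with 95% confidence intervals for V minus LA, V minus SA, LV minus RV and PA minus V, for the 7 genes tested, with filled points for an adjusted p below 0.05. The points of Irx4 lie far from 0 for V minus LA at 6.86 and for PA minus V at -7.16. Its fitted point for V minus SA lies at 8.57 but has no measured lower group, and the text gives only the bound of at least 144-fold. The point of Irx2 lies at 2.49 for LV minus RV, and Hey2 and Heyl lie above 0 for PA minus V.

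The study's methods compared LA, V and SA in 1 test, with LV and RV pooled. On those 15 arrays, limma's F-test called 4 of 7 genes among 40.5% of 15809 genes tested, Irx4 (adjusted p = 4.22e-12), Irx5 (3.12e-08), Irx2 (0.000573) and Hey2 (0.000720). Heyl (0.144), Hey1 (0.223) and Irx6 (0.871) did not pass. SPM, which sets the mean of V against the root of the summed squares of the 3 regional means, was 0.879 for Irx4, 0.776 for Irx2, 0.717 for Irx5 and 0.671 for Hey2. It lay between 0.558 and 0.608 for Irx6, Heyl and Hey1.

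The left and the right ventricle were compared next. Irx2 was 5.60-fold higher in LV than in RV and Irx5 was 1.88-fold higher, and the other 5 genes did not pass. The 2 called genes stand beside 84 called genes in all, which is 0.522% of the genes tested and 0.298% higher in LV. For Irx2, the lowest LV signal was 410.2 and the highest RV signal was 153, so the groups did not overlap. The difference was 2.49 (SE 0.45, 95% interval 1.55 to 3.42, adjusted p = 0.0117, limma), and an exact two-sided permutation test over the 35 splits of the 7 arrays gave p = 0.0286, the smallest it can give. For Irx5, the lowest LV signal was 2452 and the highest RV signal was 2017, again without overlap, but the 4 LV arrays spread over a range that reached 5124. Its difference was 0.91 (SE 0.20, 95% interval 0.49 to 1.33, adjusted p = 0.0430, limma), and the exact two-sided permutation test gave p = 0.0571.

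The difference in Irx2 was 2.40 within row 1 and 2.78 within row 2, and that in Irx5 was 0.99 and 0.77. Leaving out the RV array of replicate 2 left Irx2 at 2.27 with an adjusted p of 0.0850, and leaving out that of replicate 3 left 2.40 with 0.0514. When only the arrays of LV and RV entered the fit, the adjusted p of Irx2 was 0.112, and with normexp LV over RV was 3.35-fold. The call of Irx5 was lost in 23 of 38 alternative settings, with an adjusted p from 0.0116 to 0.342 over all of them. Mesothelial markers, those of the outer lining of the heart, also differed between the ventricles, with 3 measured of 4 summing to 8.37 to 10.96 in LV and 11.6 to 12.5 in RV. Without overlap between LV and RV were also the endothelial (16.2 to 16.3 against 16.03 to 16.1), fibroblast (16.7 to 17.03 against 17.1 to 17.4) and atrial myocyte markers (18.2 to 18.7 against 17.9 to 17.9). The atrial genes were not alike. Mean log2 signals in LV and RV were 15.6 and 10.96 for Nppa, 15.7 and 14.9 for Myl7 and 17.9 and 17.7 for Myl4. Lower in LV were Sln (7.07 and 9.24) and Mybphl (6.19 and 7.40). Their part in the differences was not tested.

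**Figure D3:**
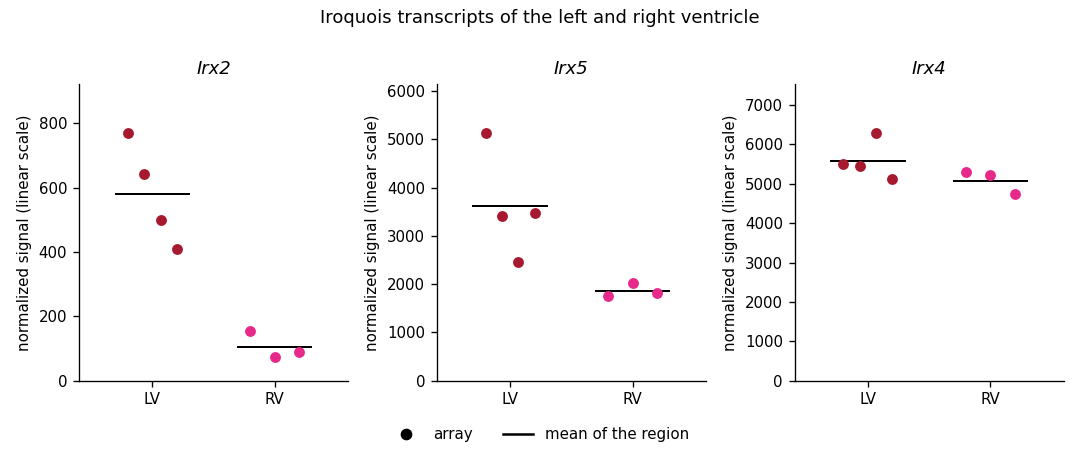
Normalized signal on a linear scale of Irx2, Irx5 and Irx4 on each of the 4 LV and 3 RV arrays, with a bar at the mean. LV and RV arrays are apart for Irx2 and for Irx5, and they overlap for Irx4.

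Within the atrial regions, Irx5 and Irx4 were higher in LA than in SA and PV. Hey2 was higher in PV than in LA and, by a call lost in most alternative settings, in SA. Between LA and SA, 2 of 7 genes were called, beside 15.3% of all genes tested and 8.26% higher and 7.03% lower in LA. Irx5 was 2.90-fold higher in LA than in SA (1.54, SE 0.18, adjusted p = 1.87e-05) and 3.04-fold higher in LA than in PV (adjusted p = 1.17e-05, limma). The lowest LA signal of 314.0 was above the highest of SA, 137, and of PV, 153.0. The LA signals of Irx4 gave a bound of at least 1.25-fold over SA (adjusted p = 0.00201) and of at least 1.54-fold over PV (adjusted p = 0.00140, limma). With dim arrays at that floor, neither difference in Irx4 was called, with adjusted p of 0.538 and 0.282.

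Between PV and LA, 3 of 7 genes were called, beside 13.5% of all genes tested, 6.99% higher and 6.51% lower in PV, with Irx5 and Irx4 lower in PV and Hey2 higher in PV. Between PV and SA, 1 of 7 was called, Hey2, beside 3.49% of all genes tested and 2.71% higher and 0.783% lower in PV. That call was lost in 25 of 38 alternative settings. These 3 comparisons share arrays with one another. Smooth muscle markers moved with them, at 11.997 to 12.3 in LA, 14.1 to 14.8 in SA and 14.8 to 15.5 in PV, whereas the atrial myocyte markers summed to 20.3 to 20.7 in all 3. Lists highest in LA were mesothelium, with 3 measured of 4 at 14.4 to 14.7 against 12.4 to 13.3 in SA and 11.7 to 13.2 in PV, and the 3 endocardial markers, at 13.7 to 14.5 against 13.008 to 13.5. The 4 Schwann cell markers were lowest in LA, at 11.8 to 12.4 in LA, 12.7 to 12.8 in SA and 13.5 to 13.9 in PV, and the brown fat gene Ucp1 had a mean log2 signal of 5.44 in LA, 12.2 in SA and 10.3 in PV. Also lowest in LA were erythroid (9.31 to 9.99 in LA, 10.9 to 11.8 in SA, 10.7 to 11.2 in PV) and autonomic neuron sums (9.06 to 9.69, 10.1 to 10.9, 10.8 to 14.2). So were sinoatrial pacemaker (11.3 to 11.7, 12.7 to 12.8, 12.2 to 12.4) and arterial endothelial sums (10.8 to 11.1, 11.2 to 11.3, 11.15 to 11.7). Among their members, Tbx18 (10.7, 10.2, 10.3) and Efnb2 (7.87, 7.76, 7.76) had their highest mean in LA. Their part was not tested. The difference in Irx5 between PV and LA was -1.21 within row 1 and -1.96 within row 2.

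The pulmonary artery, the region with the least cardiac muscle RNA, was set against the ventricle and against the vein. Irx4, Irx5 and Irx2 were lower in PA than in V, while Hey2 and Heyl were higher. These 5 of 7 called genes stand beside 58.4% of all genes tested, 30% higher and 28.4% lower in PA. Between PA and PV, 4 of 7 were called, all higher in PA, beside 53.4% of all genes tested and 29.7% higher and 23.7% lower in PA. They were Irx2, Hey2, Heyl and Irx4, and Irx4, below background on 4 of 4 PV arrays, lost its call with dim arrays at the floor (adjusted p = 0.155) and with normexp (0.0698). With normexp, the difference between PA and PV in Irx2 was 0.68, PA over PV was 3.10-fold for Hey2, and PA over V was 3.04-fold for Hey2. Both comparisons share the 4 PA arrays.

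Irx4 gave 67.0, 25.8, 35.5 and 27.9 in PA, of which 2 of 4 were well above background, and these overlapped the LA values. It was lower in PA than in V, with a difference of -7.16 (adjusted p = 6.01e-14, limma), which is 143-fold, or 118-fold with dim arrays at that floor. Irx5 gave 117, 117, 158 and 146 in PA, overlapping SA and PV, and was 19.0-fold lower than in V (adjusted p = 1.31e-14, limma), or 11.9-fold with normexp. Ventricular myocyte markers summed to 12.2 to 14.7 in PA and to at least 20.1 in V, and their part was not tested.

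Irx2 was measurable throughout PA. Its signals there were 116, 139.7, 121 and 105, well above background on 4 of 4 arrays and above every array of LA, SA and PV. PA was 4.46-fold above PV (2.16, adjusted p = 0.000172, limma), and this was 3.12-fold with dim arrays at that floor. PA against RV did not pass for Irx2, with 0.26 (SE 0.45, adjusted p = 0.667), and their arrays overlapped, while LV was above PA by 2.22 (adjusted p = 0.000105, limma). Against V as a whole, PA was 1.98-fold lower (adjusted p = 0.0275), and the adjusted p was 0.0555, 0.0526 and 0.0682 without PA replicate 1, 3 or 4 and 0.0712 without RV replicate 1. The ventricular myocyte markers summed to 14.5, 12.2, 14.2 and 14.7 on PA replicates 1 to 4, and their part in the Irx2 signal was not tested. Within rows, Irx2 in PA minus V was -1.18 and -0.68.

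Irx6, at the end of the chromosome 19 row, ranged from 11 to 126 and was well above background on 12 of 23 arrays. Each region had an array above background and no pair of neighbouring regions in the order of its means passed the test. It was called in 0 of 9 comparisons by limma and had an unadjusted p below 0.05 in 0 of 9, and its lowest adjusted p was 0.715. Its SD within a region reached 1.42 in log2, and the 95% interval of V minus LA ran from -1.39 to 0.91.

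Among the Hey genes, Hey2 had the largest differences between regions. Its promoter window is shown because Notch receptors act through Rbpj, whose core letters TGGGAA, on either strand, are in capitals. The window is chr1:28640850-28641099 on the plus strand of GRCr8.
Hey2: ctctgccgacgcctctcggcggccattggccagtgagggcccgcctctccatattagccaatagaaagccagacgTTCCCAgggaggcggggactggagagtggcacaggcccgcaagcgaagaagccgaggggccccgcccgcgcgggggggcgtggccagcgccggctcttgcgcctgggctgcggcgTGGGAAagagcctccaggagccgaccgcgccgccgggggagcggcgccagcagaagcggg
These letters stood at 175 bases from the start on the minus strand and at 60 bases on the plus strand. They are in 22.1% of all windows, and among the other 5 windows only that of Irx3 held them, 1 time. The Hey2 window also held the GC box letters once, at 114 bases on the minus strand, and was 73.2% G or C.

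Hey2 gave 399, 370.3, 396 and 333 in PA, all well above background. In LV it gave 40.3, 39.0, 48.2 and 84.1, in RV 65.3, 79.8 and 58.5 and in PV 37.6, 44.4, 58.4 and 67.3. The lowest PA signal exceeded the highest signal of any other region, and LV, RV and PV overlapped. LA gave 23.5, 18.5, 18.5 and 21.4, with 3 of 4 well above background, and SA gave 22.2, 22.6, 18.5 and 46.5, with 1 of 4. LA lay below all ventricular and PV arrays, and 1 SA array reached into their range. The difference was 2.66 between PA and V, 6.33-fold (SE 0.23, adjusted p = 3.08e-09), and 2.86 between PA and PV, 7.26-fold (adjusted p = 9.69e-09, limma).

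The smaller differences in Hey2 lay nearer to background. V was above LA by 1.47 (SE 0.23, adjusted p = 3.92e-05) and above SA by 1.15, which is 2.22-fold (adjusted p = 0.000656, limma). With dim arrays at that floor, V over SA was 1.52-fold and the adjusted p was 0.0723, and with normexp it was 1.24-fold with 0.0554. PV was 2.42-fold above LA (adjusted p = 0.00218), or 1.32-fold and not called with normexp (0.0540), and 1.94-fold above SA (adjusted p = 0.0450, limma), and the latter call was lost in 25 of 38 settings, among them dim arrays at the floor, where the difference was 0.46 (adjusted p = 0.489). V against PV did not pass, with 0.20 (adjusted p = 0.538, limma). Hey2 was not called between LV and RV, with -0.41 (adjusted p = 0.666, limma), although the gene next to it on the chromosome, Hddc2, was (-0.42, SE 0.08, adjusted p = 0.0217). Within rows, the difference of PA minus V was 2.91 and 2.36 and that of V minus LA was 1.27 and 1.82.

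Heyl, the mural cell member, gave 653, 568, 445.0 and 634 in PA and was well above background on 23 of 23 arrays. LV gave 210.1, 413, 232 and 394, RV gave 376, 191 and 262, and LA gave 210.2, 260.3, 264 and 277. PV gave 204, 244, 342 and 415, and SA gave 154, 228, 198 and 207. PA lay above all other arrays, and the other 5 regions overlapped. PA was 2.02-fold above V (1.01, adjusted p = 0.000633) and 1.96-fold above PV (0.97, adjusted p = 0.00301, limma). PA was followed in the order of its means by LV, from which it differed by 0.93 (adjusted p = 0.00379, limma), and no later pair of neighbours passed. V minus LA was 0.16 with a 95% interval from -0.31 to 0.64. Within rows, PA minus V was 1.03 and 1.11.

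Several marker lists were higher in PA than in V, as Hey2 and Heyl were. Among them were endocardial (13.1 to 13.6 against 12.1 to 12.5), sinoatrial pacemaker (12.2 to 12.7 against 11.2 to 11.6) and erythroid sums (8.70 to 11.1 against 6.95 to 8.52). Their members Npr3 (5.89 in PA, 7.51 in LV and 7.92 in RV), Hcn4 (6.79, 9.52 and 9.57) and Tbx3 (9.10, 10.6 and 10.2) had lower mean log2 signals in PA. The 5 smooth muscle markers summed to 18.6 to 18.9 in PA and 12.1 to 13.1 in V, and the 5 pericyte markers to 16.6 to 16.9 in PA and 14.8 to 15.1 in V, although the pericyte gene Rgs5 had a lower mean log2 signal in PA (10.9) than in LV (12.1) and RV (11.8). The 4 arterial endothelial markers summed to 12.3 to 13.03 in PA and 11.3 to 11.9 in V, the 3 measured of 4 adipocyte markers to 13.02 to 14.001 and 11.98 to 12.6, and the 3 measured of 5 autonomic neuron markers to 11.5 to 12.8 and 9.44 to 10.1. Some members of these lists went the other way. Mean log2 signals in PA, LV and RV were 5.62, 9.45 and 9.28 for Dbh and 11.6, 12.3 and 12.5 for Cidea. They were 7.77, 7.94 and 8.06 for Efnb2 and 3.14, 4.17 and 4.48 for Sox17. The 5 fibroblast markers summed to 18.6 to 18.9 in PA and 16.7 to 17.4 in V through the collagen genes Col1a1 and Col3a1, while Pdgfra (11.2 in PA, 12.1 in LV and 12.5 in RV) and Tcf21 (7.59, 8.96 and 9.33) had lower mean log2 signals in PA. Their part in the differences was not tested.

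Hey1 was well above background on 23 of 23 arrays but passed in no comparison of regions. It gave 1197, 958, 890.0 and 450.5 in LV, 1177, 293 and 913 in RV, and 452, 205, 474 and 667 in LA. SA gave 355, 591, 846 and 353, PV gave 369, 378, 476 and 518, and PA gave 545, 517, 509.8 and 204. The regions overlapped throughout, and each of the ventricles had 1 low array. V minus LA was 0.85 with a 95% interval from 0.01 to 1.70 (adjusted p = 0.112, limma), and PA minus V was -0.85 (adjusted p = 0.0785). Of 9 comparisons, 0 were called and 2 had an unadjusted p below 0.05.

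The row of the slide moved with Hey1. After the region means were taken off, row 1 was above row 2 by 0.63 in Hey1 and by 0.41 in Irx6, whereas the row differences of Irx2, Irx4, Irx5, Hey2 and Heyl lay between -0.12 and 0.12. With the row as a block, V minus LA in Hey1 was 0.98 (adjusted p = 0.0301, limma), and without RV replicate 2 it was 1.16 (adjusted p = 0.0199). Within rows it was 0.98 and 1.1, while V minus SA was 0.81 in row 1 and -0.11 in row 2.

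**Figure D4:**
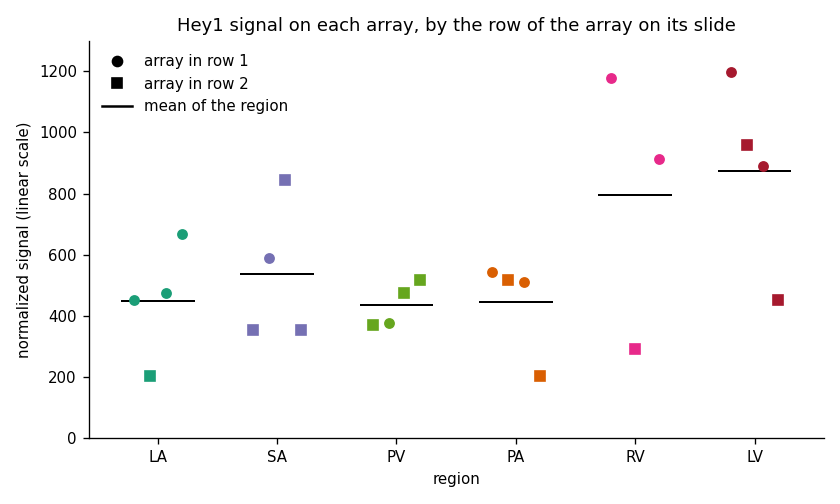
Normalized signal of Hey1 on a linear scale on each array by region, with circles for row 1 and squares for row 2 of the slides and a bar at the mean. The signals run from 204 to 1197, and the regions overlap.

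Genes of the Notch pathway, through which Hey genes are switched on, were read from the same arrays. Of 5 ligands 4 were measured. Dll4, a ligand of endothelium, was higher in V than in LA (0.60, SE 0.22, adjusted p = 0.0362) and in SA (0.66, adjusted p = 0.0281, limma). Jag1, a ligand of endothelium and smooth muscle, was higher in PA than in V (2.23, adjusted p = 1.15e-08) and than in PV (1.52), and higher in PV than in LA (1.02, adjusted p = 0.00566, limma). Dll1 was higher in PV than in LA (0.91, adjusted p = 0.00856) and was not called between V and LA (0.23), and Dll3 was not called for V against LA (0.09) or PA against V (-0.06). The median over the 4 ligands was 0.28 between V and LA, beside 0.09 over all genes.

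All 4 receptors were measured and were not alike. Between V and LA, Notch4, a receptor of endothelium, was higher in V (0.85, SE 0.09, adjusted p = 3.52e-07), as was Notch3, a receptor of mural cells (0.56, adjusted p = 0.0134, limma). Notch2 was lower in V (-1.39, adjusted p = 0.00213), and Notch1 did not pass (0.27, adjusted p = 0.106). Between PA and V, Notch4 (-1.85, adjusted p = 4.51e-13) and Notch1 (-0.51, adjusted p = 0.00140, limma) were lower in PA, while Notch2 (0.48) and Notch3 (-0.08) did not pass. The median of the 4 was 0.41 between V and LA and -0.30 between PA and V, beside 0.09 and 0.00 over all genes. The summed signal of the 6 endothelial markers was higher in V than in LA, as Notch4 and Dll4 were, with 16.03 to 16.3 in V, 15.2 to 15.6 in LA and 14.7 to 15.6 in PA. Pecam1 went the other way, with mean log2 signals of 13.4 in LV and RV and 13.5 in LA. Tek had 13.1 in LV, 12.7 in RV and 13.0 in LA. The part of these markers was not tested.

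Of 3 other Notch targets, the repressor gene Hes1 and Nrarp, a feedback inhibitor of Notch, were called in the opposite direction to Hey2 in PA. Nrarp was lower in PA than in V (-2.23, adjusted p = 9.12e-10), as was Hes1 (-1.38, adjusted p = 4.09e-06, limma). Both were higher in V than in LA, Nrarp by 1.28 (adjusted p = 9.88e-06) and Hes1 by 0.59 (adjusted p = 0.0234), and higher in V than in SA by 0.66 and 0.83. Between V and PV, Hes1 was higher in V (0.59, adjusted p = 0.0255) and Nrarp was not called (-0.05, adjusted p = 0.850, limma). Hes5, the remaining one, was not called. Of 21 processing and modulating genes 20 were measured, with 2 higher and 4 lower in V than in LA, and 4 higher and 6 lower in PA than in V, beside 35.4% and 58.4% of all genes called in these comparisons, among them the secretase subunit Aph1b (2.26), the glycosyltransferase Mfng (-2.23) and Dtx3 (2.01). Of 8 genes of the nuclear complex 6 were measured, with 0 higher and 2 lower in V than in LA and 3 higher in PA than in V, beside the same 35.4% and 58.4%, among them Hdac1 (2.20) and Maml2 (2.15).

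**Figure D5:**
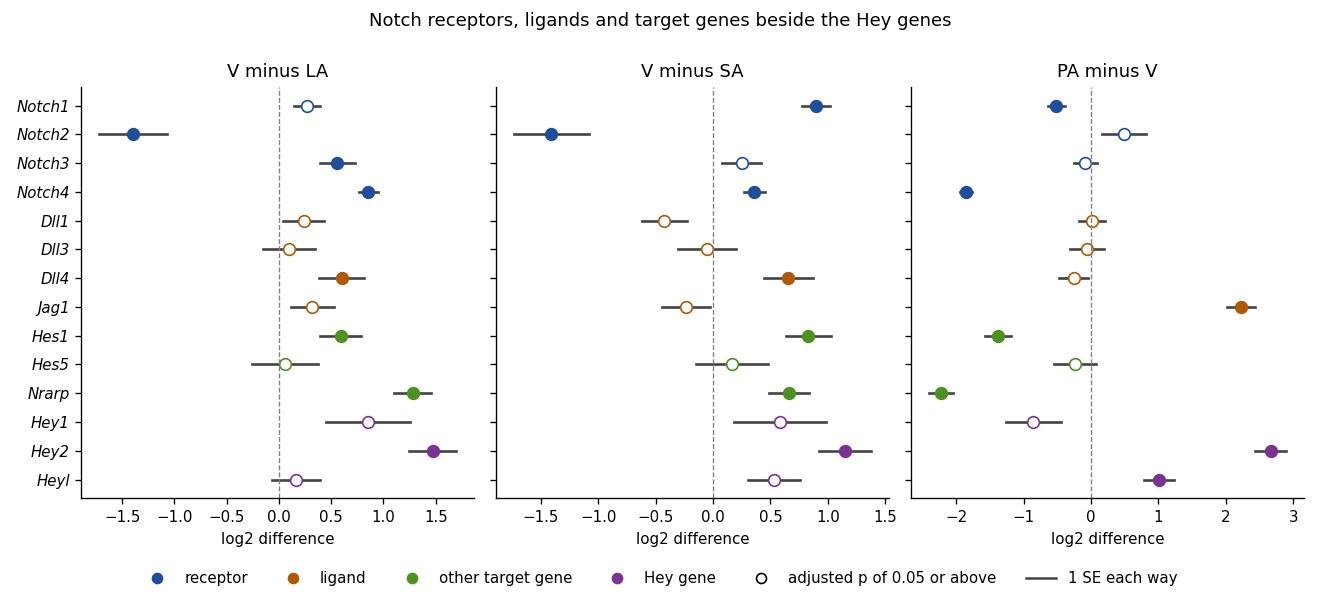
Differences of mean log2(signal + 1), with bars of 1 SE, for V minus LA, V minus SA and PA minus V, for Notch receptors, ligands and targets with the 3 Hey genes. For PA minus V, Jag1 at 2.23, Hey2 at 2.66 and Heyl at 1.01 lie above 0, and Notch4 at -1.85 and Nrarp at -2.23 lie below.

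A list of 20 heart genes known to be tied to Iroquois or Hey factors was read in the same way, and all 20 were measured. Between V and LA, 7 were higher and 4 lower, beside 35.4% of all genes called, with the atrial peptide gene Nppa (-5.32), the potassium channel partner Kcnip2 (3.88) and the chemokine Cxcl12 (2.18) farthest from 0. Between LV and RV, Nppa was higher in LV (4.62, adjusted p = 0.0037) and Kcnd2, a transient outward potassium channel, was lower in LV (-1.60, adjusted p = 0.00103, limma). Kcnd2 was higher in V than in LA (0.70, adjusted p = 0.00458) and in PV (1.29, adjusted p = 1.56e-05, limma). It was not called between V and SA (0.233, adjusted p = 0.393, limma). Its mean log2 signals were 9.42 in LV, 11.024 in RV, 9.52 in LA and 9.99 in SA. Of the ventricles, only RV had a mean above those of LA and SA. Kcnd2 was lower in PA than in V (-3.75, adjusted p = 4.46e-13, limma). Between PA and V, 2 were higher and 13 lower, beside 58.4% of all genes called, among them Nppb (-8.91), which encodes a natriuretic peptide, and Kcnip2 (-6.79).

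Genes that follow a member over the 23 arrays were taken as the 3 with the highest Pearson correlation of log2 values among 13095 genes that every array of some region showed well above background. These arrays share the 6 regions, so a high value says mainly that 2 genes have the same order of regions. Strit1, which encodes a small regulator of the calcium pump, was closest to Irx4 (r = 0.984), then Mbtps2 (0.979) and Tmem141 (0.975). Crym was closest to Irx5 (r = 0.977), followed by the leukocyte genes Ptprc (0.975) and Cd37 (0.971), and Penk, which encodes proenkephalin, was closest to Irx2 (r = 0.935), followed by Ppp6c (0.906) and Bok (0.905). Glipr1 (0.968), Tyro3 (0.967) and the tropomyosin gene Tpm4 (0.963) were closest to Hey2, and Tsku (0.889), Cask (0.885) and Map3k2 (0.866) to Heyl. For Hey1 they were Atcay (0.943), Tm6sf2 (0.922) and Otop3 (0.916).

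Among the members themselves, Irx4 and Irx5, which lie in different clusters, had an r of 0.957 over the 23 arrays, and r was -0.07 once each region's mean was taken off. For the neighbours Irx2 and Irx4 these values were 0.764 and -0.11, for Irx2 and Irx5 0.725 and 0.40, and for Hey2 and Heyl 0.796 and 0.29. Irx4 was not well above background on 10 of the 23 arrays, so its values within SA, PV and part of PA could not show a likeness.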

How the data were processed

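RNA of 6 regions was hybridised in 1 color to 23 Agilent SurePrint G3 rat arrays (GE 8x60K v2). Per the file headers, Feature Extraction 11.0.1.1 gave each spot a background-subtracted, detrended signal intensity with detection flags. The authors' deposited normalized intensities, on a linear scale, are that signal multiplied by 1 factor per array (0.881 to 1.52) to a common 90th percentile, within 2% for 99.6% to 99.8% of the probes of an array. They were used here, and the scanner intensities were an alternative.

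Of 45598 probes, 158 with a missing value were removed, and 21047 of the other 45440 were named through RefSeq accessions of the array design, giving 16544 genes. On each array a gene took the value of its highest probe, 1 was added and the log2 was taken, as in the study's methods. Genes above 4 on at least 1 array (16089) were fitted as 6 region means with limma 3.58.1 (R 4.3.3 with the data.table package, version 1.17.8), which was tested on simulated data. Tables and figures were made with Python 3.11.15, pandas 2.3.3, numpy 2.4.6 and matplotlib 3.10.9. The detection flags served for the bounds and filters. No spot was saturated, and every column of the files belonged to a sample. The number of arrays limits the precision.

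The members, the gene lists and the comparisons were chosen with earlier results of these data known. All members are named, with each Notch ligand and receptor, at most 3 called genes with the largest difference in other lists, and the 3 genes most like a member, and some list genes are not reported here by name. Alternatives were the scanner signals at the 75th percentile, quantile normalization, normexp with an offset of 50, a pseudocount of 16, other filters, fits of only the arrays compared or with a trended variance, blocks of slide, row and replicate number, the methods' analysis of variance and each array left out. An alternative with dim arrays set to a floor, the dimmest signal of the array that is well above background,, and a replicate block with another number for 1 RV array, were added after seeing the data.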

Additional observations from a re-analysis of the deposited data

Results flagged for a closer look

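Of 42 groups of the arrays of 1 region for 1 gene, with 4 arrays in LA, LV, SA, PV and PA and 7 in V, 2 held an array far from the others, and chance marks about 1 in 20 such groups. Irx2 on LA replicate 1 was the lowest of its group at 3.573 in log2, at a gap of 0.835 of the group's range, and was not well above background there. Hey1 on PA replicate 4 was the lowest of its group at 7.681 in log2, at a gap of 0.932 of the range.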

How the results depend on the processing

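Under 38 alternative settings, 23 of them with 1 array left out, 19 of the 28 called member differences were called in the same direction each time. Of 1064 alternative values of called differences, 1002 were called in the same direction, 62 were not called and 0 reversed, while 9 other values became called and 72 of 1321 values of uncalled differences had the other sign. Between LV and RV, 2 members were called, and 1 was called under quantile normalization, normexp, a slide block, a row block, a replicate block and a replicate block with the third RV array as number 4, 0 with only the arrays compared, and 0 to 2 with 1 array left out. Same-numbered arrays did not deviate together (median r of -0.043 over 55 pairs), and 4 of 23 arrays were nearest to one of their own number. Between PV and SA, 1 member was called, and 0 under the scanner signals at the 75th percentile, quantile normalization, normexp, a pseudocount of 16, only the arrays compared, a trended variance and dim arrays at the floor of detection, and 0 to 1 with 1 array left out. Between LA and SA, 2 members were called, and 1 with dim arrays at that floor. Over all genes, 84 were called between LV and RV, but 137 among genes well above background, 13 with only the arrays compared, 144 with a trended variance and 52, 46 and 41 without LV replicate 2, RV replicate 1 and RV replicate 2. Between PV and LA 2172 were called, and 1264 with only the arrays compared. Between PV and SA 562 were called, 67 with only the arrays compared, and 176, 245, 298 and 251 without PV replicate 4 and SA replicates 1, 2 and 3. The cause of these shifts was not tested. Further calls lost were Hey2 in V against SA and PV against LA under normexp (adjusted p of 0.0554 and 0.0540) and Irx4 in PA against PV under normexp (0.0698) and with dim arrays at that floor (0.155). Heyl in V against SA was called without LV replicate 1 (0.0469) or RV replicate 2 (0.0394), and Hey1 in PA against V without LV replicate 4 (0.0382) or RV replicate 2 (0.0112), under normexp (0.0447) and with a slide block (0.0396).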
